A study of Homo sapiens with 6 samples.

Results

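The 9 genes NOL9, NANOGNB, DISC1, PDLIM5, SLC4A8, AMBRA1, ELP4, HMGA2 and LAMB4 were chosen by level, because 1 row of the gene, that is 1 RefSeq protein isoform, stood at an unexpectedly high level beside the rest of the gene or for the cell type. The genes hold 67 of the 109018 rows of the expression table, and they are 9 of the 19053 genes that could be given a symbol. Of the 67 rows, 39 held a read and 24 had a mean of at least 1 RPKM (reads scaled to the length of the row and to the reads counted in the library) over the 6 libraries. For each gene the row with the highest mean RPKM is called its lead row. NOL9 had also been listed by the authors for the contrast examined here, so its change is given as a description only.

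RNA-seq was performed on K562 cells, a chronic myeloid leukemia line of erythroid character that carries the Bcr-Abl fusion. Stable lines were made with a lentiviral shRNA vector that also expresses GFP. The control hairpin targets luciferase (sh-luc, 3 libraries) and the other targets lncRNA-IUR-5, which the sample labels call lncRNA-IIRX (sh-IUR-5, 3 libraries). The RNA of each group came from 3 independent groups of cells, and the labels name no drug treatment. Both groups carry the same vector and differ in the hairpin. Whether more than 1 clone or 1 transduction stood behind a line was not given in the sources used here.

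Reads counted on rows numbered 21023739 to 31481109 per library. The erythroid genes GATA1, KLF1, HBG1, HBG2, HBE1 and HBZ had means from 52.1 RPKM (GATA1) to 10352 RPKM (HBG2), and TAL1 had 2.24 RPKM. Of the 10 markers of other cell types, 9 had means from 0 to 0.316 RPKM, and the epithelial marker EPCAM had 97.5 RPKM. The knocked-down lncRNA has no protein row, so the knockdown itself was not analysed here. Because RPKM is scaled to total reads and edgeR's TMM scaling is not, the median log2 fold change over tested rows was 0.0049 with TMM and 0.21 without it. Fold changes below are TMM scaled and are read relative to that.

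An isoform row is the coding sequence of 1 protein, and rows of 1 gene share most of their exons, so a read in a shared exon fits several rows. The rule by which such reads were assigned is not given in the sources used here. Alu elements are short repeats derived from the 7SL RNA of the signal recognition particle. They are the most numerous repeat of the human genome, lie mostly in introns and between genes, and can be taken up into a transcript as an exon when splice sites arise in them.

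The sequences of the lead rows were compared first, a search that was made after the levels had been seen. For 7 of the 9 lead rows, all but those of NOL9 and AMBRA1, GENCODE release 44 on hg38 held coding transcripts of the gene with exactly the row's length and 1 coding sequence. In each of the 7 this transcript had 1 coding stretch that no other coding transcript of the gene held. In HMGA2 it was 192 bases in coding exon 4 of 4 on chromosome 12, plus strand. In ELP4 it was 289 bases in coding exon 10 of 12 on chromosome 11, plus strand. In PDLIM5 it was 312 bases in coding exon 2 of 2 on chromosome 4, plus strand, and made up 75.9% of the coding length. In DISC1 it was 284 bases in coding exon 10 of 10 on chromosome 1, plus strand. In LAMB4 it was 192 bases in coding exon 17 of 17 on chromosome 7, minus strand. In NANOGNB it was 102 bases in coding exon 1 of 4 on chromosome 12, plus strand. In SLC4A8 it was 228 bases in coding exon 15 of 15 on chromosome 12, plus strand, and all 7 stretches are coding exon sequence and not UTR.

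These private stretches resemble one another, although the genes lie on different chromosomes or far apart on 1 chromosome. The stretches of HMGA2 and ELP4 were 91.1% identical over 192 bases, those of ELP4 and LAMB4 90.6% over 192 bases, and those of HMGA2 and LAMB4 89.1% over 192 bases. Of the 21 pairs of stretches, 19 aligned, with identities from 73.4% (DISC1 and SLC4A8, over 256 bases) upward. NANOGNB aligned with 4 of the other stretches, each time in the opposite orientation. In 6 of the 7 genes, all but HMGA2, the stretch also aligned with the 7SL gene RN7SL1, at 89.6% over 67 bases in PDLIM5 and 80% over 60 bases in NANOGNB. Likeness to 7SL and a high copy number are known features of Alu elements, and the stretches are called Alu-like here. They were not compared with a repeat annotation.

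The stretches hold words that are repeated widely in the genome. Every word of 24 bases of the 7 lead rows was counted on both strands of the 24 chromosomes of hg38. The most frequent word had 270501 copies in DISC1 and in NANOGNB, 129754 copies in HMGA2, ELP4, LAMB4 and SLC4A8, and 94147 copies in PDLIM5. In HMGA2 148 of the 169 words of the private stretch had at least 100 copies, and in ELP4 171 of 266 did. In the 32 other rows of the 9 genes that could be matched in the same way, no word had more than 2 copies. The second high rows of DISC1 (NP_001158009.1) and SLC4A8 (XP_006719763.1) were not among the 32, and their sequence was not analysed here. Words and not reads were counted, and whether whole reads from these stretches fit many places was not tested. The levels of the 7 lead rows therefore remain uncertain as levels of their genes.

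Values of 3 libraries are given in the order 1, 2 and 3. HMGA2, an architectural chromatin protein of embryonic and tumor cells that let-7 represses, had the highest lead row of the 9 genes. NP_001287848.1 had 2046, 1882 and 1820 RPKM in sh-luc cells and 1121, 1181 and 1205 RPKM in sh-IUR-5 cells. All sh-IUR-5 libraries lay below all sh-luc libraries. The other 3 HMGA2 rows, of 321 to 357 bases, held no read in any library, although the lead row shares its first 249 coding bases with transcripts of the gene. Against a floor of 3 reads over the 6 libraries, the lead row was at least 23536-fold higher than any of them. The row ranked 122 of 109018 by mean RPKM.

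PDLIM5, a PDZ and LIM domain protein of the actin cytoskeleton, followed in level. Its lead row NP_001243358.1, of 411 bases, had 1417, 1294 and 1293 RPKM in sh-luc cells and 805, 833 and 850 RPKM in sh-IUR-5 cells. The groups did not overlap. The other 8 rows had means of 1.16 to 2.47 RPKM, so that the lead row stood 439-fold above the next, NP_006448.4, and took 95.9% of the reads of the gene.

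ELP4, a subunit of Elongator, the complex that modifies the wobble uridine of tRNA, had a lead row of 1608 bases. NP_001275655.1 had 659.9, 607 and 594 RPKM in sh-luc cells and 374, 385 and 403 RPKM in sh-IUR-5 cells, again without overlap. Its other rows had means of 17.1 RPKM for NP_061913.3 and 14.8 RPKM for NP_001275654.1. The lead row was 29.5-fold above the next.

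AMBRA1, a scaffold of autophagy and of cyclin D degradation, had 99.2% of its reads on the lead row NP_001254711.1. That row, of 3906 bases, had 378, 343 and 346 RPKM in sh-luc cells and 208, 220.3 and 224 RPKM in sh-IUR-5 cells. No sh-IUR-5 library reached the lowest sh-luc library. The other 3 rows had means of 0.750 to 0.872 RPKM, under the minimum of 1 RPKM for testing. The gene lies on chromosome 11 from 46396414 to 46594125 (minus strand), and the sequence of its lead row was not analysed here.

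LAMB4, a laminin beta chain, and NANOGNB, a homeobox gene next to NANOG that is known from the early embryo, would not be looked for in K562 cells. LAMB4 had 288, 261 and 262 RPKM in sh-luc cells and 160, 166 and 173 RPKM in sh-IUR-5 cells on NP_001304977.1. Its other 9 rows, of 3306 to 5319 bases, held no read, which puts the lead row at least 34357-fold above them. NANOGNB had 249, 229 and 225 RPKM in sh-luc cells and 137, 139 and 136 RPKM in sh-IUR-5 cells on NP_001138937.1. This is the sole row of the gene, so NANOGNB had a high row but no other isoform to compare it with. In both genes the groups did not overlap.

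DISC1, a scaffold of neuronal development and the centrosome, and SLC4A8, a sodium-driven chloride bicarbonate exchanger, departed from the picture of 1 high row. DISC1 had 101, 91.9 and 92.2 RPKM in sh-luc cells and 56.9, 58.1 and 57.4 RPKM in sh-IUR-5 cells on NP_001158011.1. A further DISC1 row, NP_001158009.1, had 16.4, 15.1 and 13.5 RPKM and 8.06, 8.99 and 8.46 RPKM in the same order. Of the other 21 DISC1 rows, 16 held no read and 5 held 1 or 2 reads over the 6 libraries. SLC4A8 had 2 rows of like level, NP_001245332.1 with a mean of 47.7 RPKM and XP_006719763.1 with 43.5 RPKM, while its other 7 rows held 3 to 10 reads each. In SLC4A8 the lead row took 50.5% of the reads of the gene, so the label of a single high row does not hold for it. The lead row of SLC4A8 had 64.1, 56.4 and 58.2 RPKM in sh-luc cells and 35.9, 35.9 and 35.7 RPKM in sh-IUR-5 cells, without overlap.

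NOL9, a polynucleotide kinase that acts in the maturation of ribosomal RNA, had 541, 521 and 475 RPKM in sh-luc cells and 227, 253 and 255 RPKM in sh-IUR-5 cells on the isoform X1 row XP_016857826.1. Its other 3 rows had means of 2.71 to 3.84 RPKM. NOL9 lies on chromosome 1 from 6521347 to 6554513 (minus strand), and the sequence of the isoform X1 row was not analysed here.

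**Figure D1:**
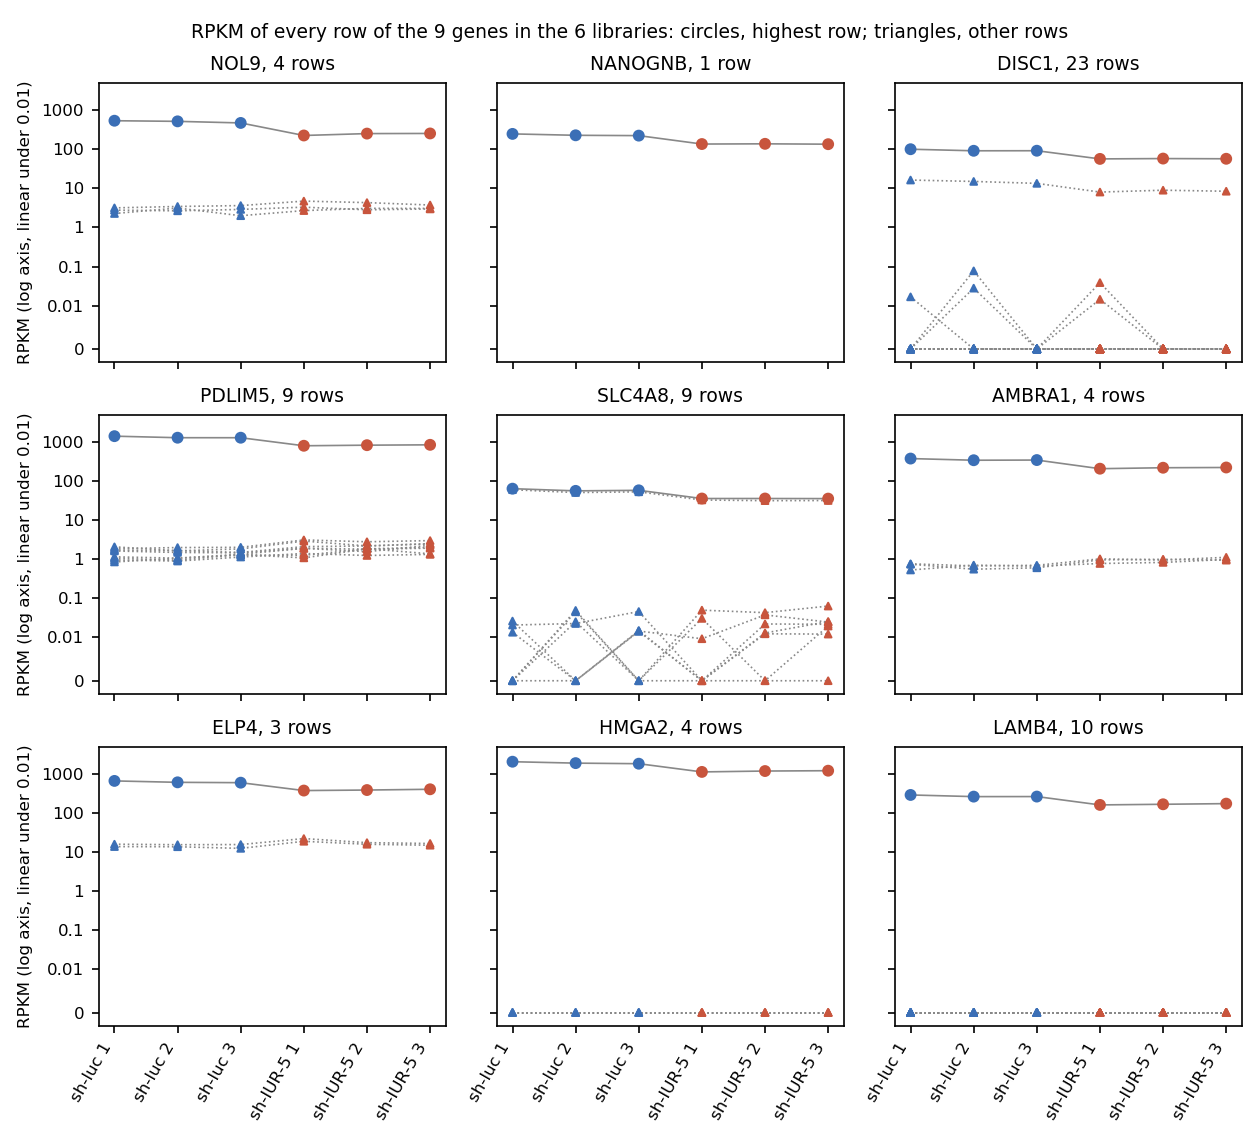
RPKM (vertical axis, logarithmic and linear below 0.01) of every row of the 9 genes in the 3 sh-luc (blue) and 3 sh-IUR-5 (red) libraries. Circles joined by solid lines are lead rows and triangles are the other rows, which in PDLIM5, AMBRA1, ELP4 and NOL9 lie well below the circles and in HMGA2 and LAMB4 lie at 0.

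Next, the change after knockdown was examined in the lead rows with edgeR's quasi-likelihood test and Benjamini-Hochberg adjustment over the 38204 rows with a mean of at least 1 RPKM. All 8 lead rows outside NOL9 were lower in sh-IUR-5 cells, against 18.1% of all tested rows. The genes had been chosen with these results known, so the 8 calls are not independent support for a direction. The log2 fold change was -0.91 (SE 0.073, adjusted p = 1.74e-07 from edgeR) for HMGA2 and -0.97 (SE 0.075, adjusted p = 1.74e-07) for NANOGNB, the widest of the 8. ELP4 had the narrowest, -0.87 (SE 0.071, adjusted p = 1.74e-07). The changes of PDLIM5 (-0.88), LAMB4 (-0.89), AMBRA1 (-0.90), DISC1 (-0.92) and SLC4A8 (-0.93) lay between, with SE from 0.071 to 0.076 and the same adjusted p. NOL9 stood apart at -1.26 (SE 0.079).

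High rows tended to be lower in general, and that moved with the result. Of the 3244 tested rows of at least 40 RPKM, which include the 9 lead rows, 57.0% were lower and their median log2 fold change was -0.27. A log2 fold change of -0.8 or less, which all 9 lead rows had, was found in 6.23% of those rows. The part of level in the result was not tested. In RPKM, which is scaled to total reads alone, all 3 sh-IUR-5 libraries lay under all 3 sh-luc libraries in each of the 9 lead rows, against 11.4% of tested rows. The share of reads on the 9 lead rows was 0.609%, 0.56% and 0.55% in sh-luc cells and 0.327%, 0.344% and 0.351% in sh-IUR-5 cells.

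Library 1 of each group was taken as 1 series and libraries 2 and 3 as another. This was read from the numbering in the sample descriptions, in which libraries 2 and 3 share a first number. The labels do not say what that number stands for. Within the first series, with 1 library against 1, the RPKM ratio of sh-IUR-5 to sh-luc was 0.548 (HMGA2) to 0.568 (PDLIM5) in the 8 lead rows outside NOL9. Within the second, with 2 against 2, it was 0.604 (NANOGNB) to 0.656 (ELP4). NOL9 had 0.419 and 0.511. The ratio was below 1 in both series for all 9 lead rows. The part of the series in its size was not tested.

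The lead rows outside NOL9 moved almost together. For each of the 8 rows, its ratio to the geometric mean of the other lead rows outside NOL9 had a coefficient of variation over the 6 libraries of 1.26% (AMBRA1) to 3.16% (NANOGNB). NOL9 had 13.8% against those 8. Among the 3234 other rows of at least 40 RPKM the median was 24.9%, and 93 of them, or 2.88%, came within 3.16%. The 6 libraries span both groups, so a row without a like fall has a high value by this measure. The lead rows were chosen with their fall known, so the measure is a description and adds no separate support. Over the 6 libraries, Pearson's r of log2 RPKM between any pair of the 8 rows was 0.993 to 1.00, a description in which both groups and the library totals are shared. The 8 genes lie on 5 chromosomes, and their known roles differ as described above.

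**Figure D2:**
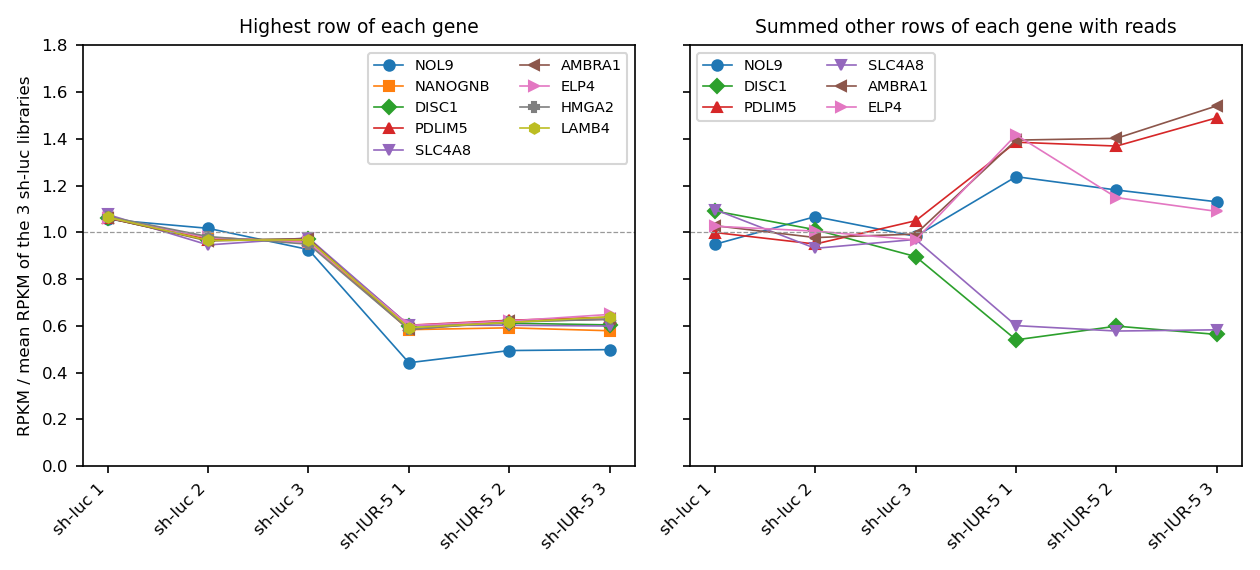
RPKM divided by the mean of the 3 sh-luc libraries (vertical axis, linear from 0) in each of the 6 libraries, for lead rows on the left and for the summed other rows of the 6 genes with reads there on the right. The 8 lead rows outside NOL9 run together at 0.579 to 0.649 in sh-IUR-5 cells, while the other rows part into a group above 1 (NOL9, PDLIM5, AMBRA1, ELP4) and a group below it (DISC1, SLC4A8).

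The other rows did not move with the lead rows in PDLIM5, AMBRA1 and ELP4. For each library the log2 ratio of the lead row's RPKM to the summed RPKM of the other rows was taken, and its level is a description. In PDLIM5 this ratio was 6.97, 6.91 and 6.76 in sh-luc cells and 5.68, 5.75 and 5.65 in sh-IUR-5 cells, a change of -1.19. In AMBRA1 it was 7.54, 7.47 and 7.46 against 6.24, 6.31 and 6.19, a change of -1.24. In ELP4 it was 4.48, 4.39 and 4.42 against 3.20, 3.54 and 3.68, a change of -0.96. Groups did not overlap in these 3 genes (two-sided exact permutation test, p = 0.1 each, the smallest that 3 against 3 libraries can give, unadjusted). limma on the same log2 ratio of reads, fitted to 8076 genes, gave adjusted p = 7.81e-05 for PDLIM5, 0.000207 for AMBRA1 and 0.000491 for ELP4, in a direction that 2.92% of those genes passed in. The lead row is the numerator, and the genes were chosen with its fall known. Where the other rows stayed level, a lower ratio restates that fall, so these p-values are not separate support.

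In DISC1 and SLC4A8 the other rows followed the lead row. The ratio changed by 0.090 in DISC1, from 2.66 ± 0.0974 to 2.76 ± 0.0605 (SD, n = 3, exact permutation p = 0.3), and by 0.033 in SLC4A8, from 0.118 ± 0.0263 to 0.151 ± 0.0291 (SD, n = 3, exact permutation p = 0.3). In both genes the groups overlapped. limma gave changes of 0.089 (SE 0.076) and 0.033 (SE 0.039). The summed other rows were nearly all the second high row in both genes, and taking the median of the other SLC4A8 rows, which hold a few reads each, turned its change to -0.65. In NOL9 the ratio went from 5.88 to 4.58. NANOGNB, HMGA2 and LAMB4 had no reads on other rows, so no ratio could be formed.

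Row by row, 4 of the 15 other rows with at least 1 RPKM passed the edgeR test. The second DISC1 row NP_001158009.1 fell by 1.01 on the log2 scale (SE 0.095, adjusted p = 4.15e-07 from edgeR) and the second SLC4A8 row XP_006719763.1 fell by 0.96 (SE 0.078, adjusted p = 1.74e-07). The other 2 were PDLIM5 rows and rose, as 19.2% of all tested rows did. NP_006448.4 went from 1.87, 1.99 and 2.02 RPKM in sh-luc cells to 3.12, 2.80 and 3.0 RPKM in sh-IUR-5 cells, a log2 fold change of 0.41 (SE 0.13, adjusted p = 0.018 from edgeR). NP_001243356.1 went from 1.15, 1.07 and 1.34 RPKM to 1.90, 1.81 and 1.92 RPKM, a log2 fold change of 0.47 (SE 0.17, adjusted p = 0.0415). Both PDLIM5 calls depend on the fit and on single libraries. With DESeq2 (adjusted p = 0.078 and 0.149) and in the edgeR fit with no minimum level (0.0731 and 0.114) neither passed. The first was also lost without sh-luc library 1 (adjusted p = 0.062) or sh-IUR-5 library 3 (0.0502), and the second kept its call in 1 of 6 such fits, the one without sh-luc library 3 (0.046).

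The remaining 6 PDLIM5 rows had log2 fold changes of 0.13 to 0.34 and none passed in edgeR with TMM scaling. With limma on log2(RPKM + 0.1) 2 of them passed, NP_001243357.1 (adjusted p = 0.046) and NP_001011513.3 (adjusted p = 0.025), and the same 2 passed with edgeR scaled to total reads. In ELP4 the other 2 rows had 0.067 and 0.12, in NOL9 the other 3 had -0.062 to 0.13, and none passed in edgeR with TMM scaling, also at an unadjusted p under 0.05. DESeq2 called none of these 5, and limma called 1 ELP4 row. Scaled to total reads, edgeR called both ELP4 rows and 1 NOL9 row higher. The 3 other AMBRA1 rows were tested in a fit of all 83980 rows with a read, in which 10.7% of rows were higher. They had log2 fold changes of 0.20 to 0.35 and none passed, with 1 at an unadjusted p under 0.05. In RPKM all 3 AMBRA1 rows, both ELP4 rows, 5 of the 8 PDLIM5 rows and 1 of the 3 NOL9 rows were higher in every sh-IUR-5 than in every sh-luc library. With RPKM this was common, in 40.3% of tested rows. The 5 DISC1 rows and 7 SLC4A8 rows with 1 to 10 reads could not show a difference at this depth, and the remaining 28 rows held no read.

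**Figure D3:**
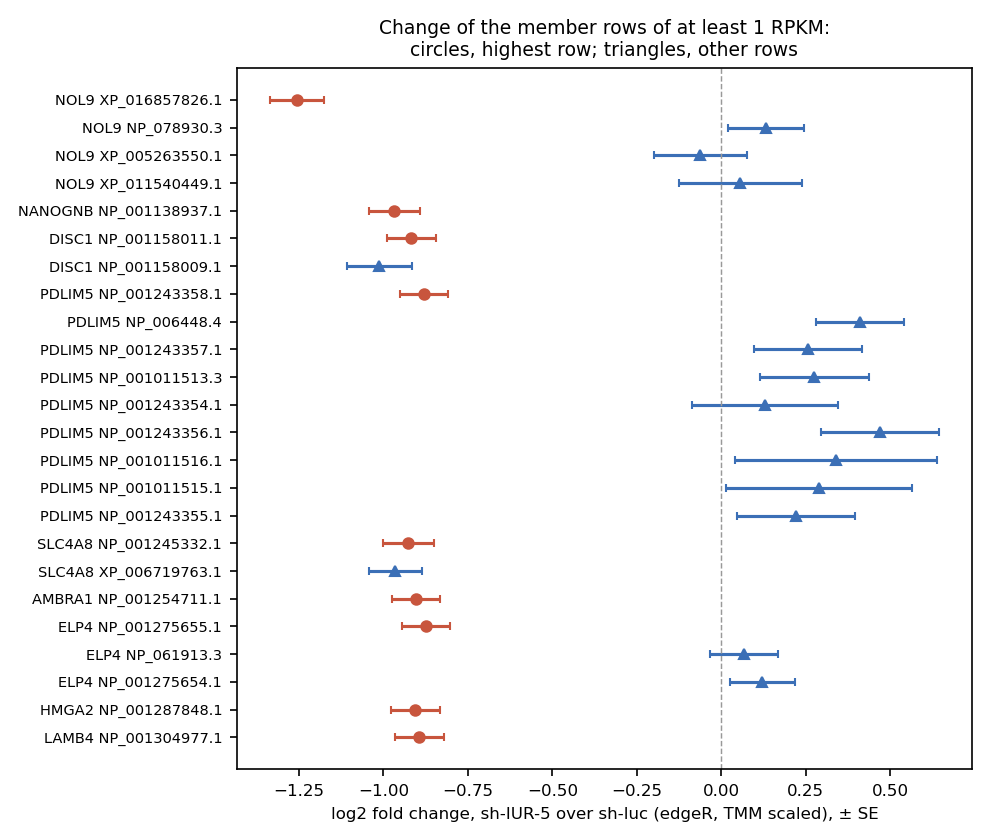
Log2 fold change of sh-IUR-5 over sh-luc (horizontal axis, edgeR with TMM scaling, bars ± SE) of the 24 member rows of at least 1 RPKM. The 9 lead rows (circles) and the second rows of DISC1 and SLC4A8 lie between -1.26 and -0.87, and the other 13 rows (triangles) between -0.062 and 0.47.

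When each row was tested against its own gene (edgeR, diffSpliceDGE, 48768 rows), 13 rows outside NOL9 changed more upward than their gene, against 0.533% of all rows. They were the 8 other rows of PDLIM5, the 3 of AMBRA1 and the 2 of ELP4. Relative to the gene they were 0.96 to 1.30 higher in PDLIM5, 1.14 to 1.30 in AMBRA1 and 0.89 to 0.94 in ELP4 on the log2 scale. The gene's estimate is taken from summed reads, of which the lead row holds most, so the lead rows themselves could hardly depart from it. For the same reason a row that stayed level while its lead row fell is called upward here. Of the 13, only the 2 PDLIM5 rows named above passed for a change of their own in edgeR with TMM scaling and a minimum of 1 RPKM. The 3 AMBRA1 rows lay under that minimum. In the fit with no minimum level, neither they nor the 2 PDLIM5 rows passed. Scaled to total reads, 2 further PDLIM5 rows and the 2 ELP4 rows also passed as higher. The 13 calls thus restate the known fall of the lead rows and are not separate support for a rise. No row of DISC1 or SLC4A8 passed (edgeR), with 0 and 1 row at an unadjusted p under 0.05.

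Rows of other genes that hold a like stretch were examined next. Of the 42784 table rows that could be matched to a coding sequence by symbol and length, 228 rows of 175 other genes held a stretch of at least 60 bases that was at least 80% identical to 1 of the 7 described above. All 228 held reads, and 217 were tested. Of these, 198 (91.2%) were lower in sh-IUR-5 cells and 1 was higher, whereas of 17879 tested rows without such a stretch 18.1% were lower and 21.6% higher. The median log2 fold change was -0.79 in the former and 0.018 in the latter. At a mean of 40 RPKM or more, where high rows were lower in general, the medians were -0.84 for 57 rows and -0.25 for 2356 rows. In the same range 16 of the 57 rows followed the lead rows within 3.16%, as did 1 of the 2356. Of the 821 other rows in that range with no matched sequence, 76 (9.26%) did so too. Most of the rows that followed the lead rows were thus of unknown sequence. This search was made after the levels had been seen, these rows share sequence and are not independent, and no test was made of the difference.

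**Figure D4:**
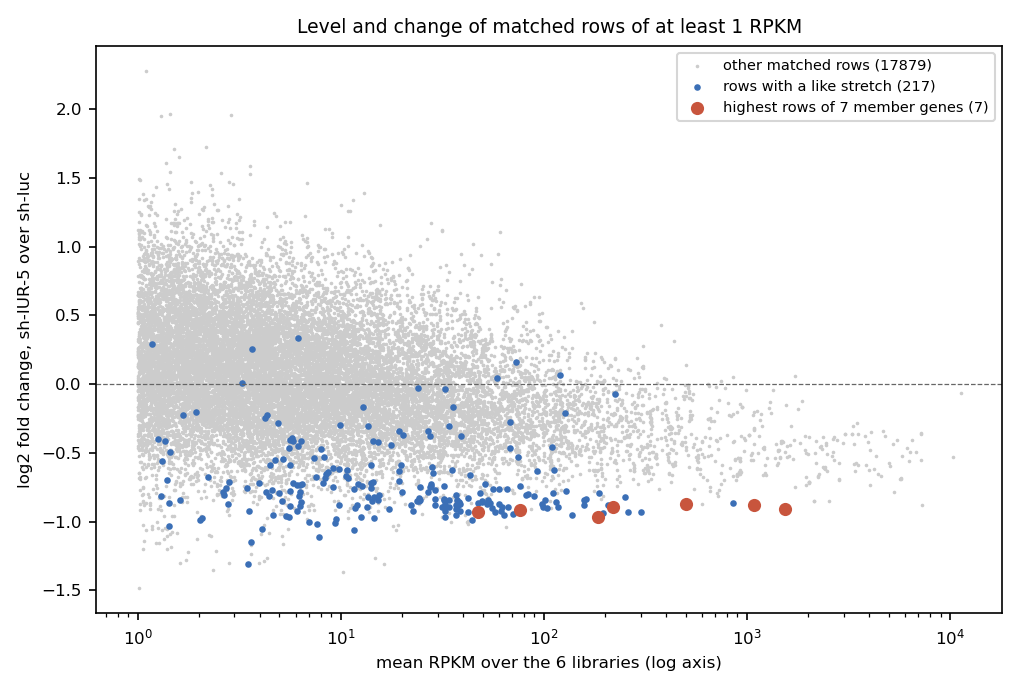
Log2 fold change of sh-IUR-5 over sh-luc (vertical axis, edgeR) against mean RPKM (log horizontal axis) for tested rows matched to a coding sequence. The lead rows of 7 member genes (red, large) and 217 rows of other genes with a like stretch (blue) lie mostly between -0.5 and -1, below most of the 17879 rows without one (gray).

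Some rows with a like stretch kept out of this pattern. RPL15, a ribosomal protein, had such a stretch in NP_001240313.1 with a log2 fold change of -0.075 (adjusted p = 0.454 from edgeR), and SRP9, a signal recognition particle protein, had 0.065 (adjusted p = 0.577) in NP_001123912.1. Their stretches were near the minimum identity, at 80.5% over 77 bases in RPL15 and 81.0% over 79 bases in SRP9. RHOA, a small GTPase with 85.1% over 134 bases, had 0.042 (adjusted p = 0.721 from edgeR). These genes were picked from the list after its values were seen.

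The genes most like the 9 were sought among 1422 genes with at least 3 rows and a lead row of at least 10 RPKM, by the log2 ratio of the lead row's mean RPKM to the median of the other rows (0.01 RPKM added to both). HMGA2 was 1st and LAMB4 4th by this measure, and ELP4, at 123rd, was the lowest of the 8 members with several rows. The 5 highest outside the 9 were C4BPB, ADRA1A, ZNF454, STEAP2 and PABIR3. ZNF454 had a next row with a mean of 281.7 RPKM beside its lead row with 282.8 RPKM, so it did not have a single high row. The next row of ADRA1A had a mean of 32.2 RPKM. C4BPB, a complement regulator made in liver, had 526 ± 32.9 RPKM (SD, n = 3) in sh-luc and 318 ± 12.5 (SD, n = 3) in sh-IUR-5 cells on its lead row. Its other 6 rows were at 0. ADRA1A, an adrenergic receptor, had 308 ± 19.3 and 192 ± 5.87 RPKM (SD, n = 3). The lead rows of the 5 genes had log2 fold changes of -0.94 (ZNF454) to -0.87 (PABIR3). PABIR3 held a like stretch, and the lead rows of the other 4 were not matched to a sequence.

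Known partners of the 9 genes were also examined, each at its row with the most reads. Of 66 genes in 9 lists, 36 could be tested, and 11 rose and 4 fell, while 45.9% of all genes tested in this way passed in either direction. The median log2 fold change was 0.071, beside -0.0077 over those genes. By direction, 19.2% of all tested rows were higher and 18.1% were lower.

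In the NOL9 complex, which processes the internal spacer of ribosomal RNA, WDR18 fell by 0.53 (SE 0.082) and PELP1 fell by 0.41 (SE 0.081), and the other 4 of 6 did not pass. In Elongator ELP6 fell by 0.50 (SE 0.094) and the catalytic subunit ELP3 rose by 0.38 (SE 0.14), while ELP2 and ELP5 did not pass. Of the AMBRA1 partners 5 of 9 rose, among them the ubiquitin ligase scaffolds CUL4B (0.57, SE 0.11) and CUL4A (0.45, SE 0.099) and the lipid kinase subunit PIK3R4 (0.37, SE 0.10). Counted in either direction, 4 of the 9 passed with DESeq2 and 8 with limma. Among HMGA1 and the let-7 regulated oncofetal genes 3 of 4 rose. In either direction, 2 of the 4 passed with DESeq2 and 4 with limma. LIN28B, which blocks let-7 maturation, had 1.87 ± 0.313 RPKM in sh-luc and 4.01 ± 0.437 in sh-IUR-5 cells (SD, n = 3), a log2 fold change of 0.90 (SE 0.19, adjusted p = 0.000923 from edgeR). The RNA-binding proteins IGF2BP3 (0.90, SE 0.13) and IGF2BP1 (0.30, SE 0.098) also rose.

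Of the 7 DISC1 partners tested, the kinesin KIF5A rose by 0.74 (SE 0.13) and FEZ1 fell by 0.34 (SE 0.12). Of 3 PDLIM family members tested none passed in edgeR, DESeq2 or limma. At an unadjusted p under 0.05 there were 0 in this edgeR fit and 2 in the fit of all rows with a read. SLC4A2, the sole SLC4 relative above 1 RPKM, had -0.092 (adjusted p = 0.396 from edgeR). LAMB2 was the sole other laminin chain above 1 RPKM and had -0.41 (adjusted p = 0.0788 from edgeR). None of the 4 NANOG neighbours in the table reached 1 RPKM.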

How the data were processed

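RNA-seq libraries of K562 cells, 3 sh-luc and 3 sh-IUR-5, were compared as the sample labels group them. Per the submitters' processing notes, CASAVA 1.8, Trimmomatic 0.32, Bowtie2 2.1.0, SAMtools 0.1.19 and hg38 were used. The release of RefSeq, and how reads fitting more than 1 isoform or place were counted, are not given in the sources used here. The authors deposited read counts per RefSeq protein accession without normalization, and RPKM values that equalled reads divided by row length and library total in all 109018 rows. The lengths are coding lengths (99.8% are multiples of 3). A deposited table of the comparison holds pooled counts, folds, p-values and q-values of the authors. It served to name the NOL9 isoform X1 row, and its folds and p-values were not used.

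Symbols were matched for 64.7% of rows by RefSeq accession. edgeR 4.0.16 (R 4.3.3, TMM, quasi-likelihood, two-sided) was fitted to the 38204 rows with a mean of at least 1 RPKM, Benjamini-Hochberg adjusted, threshold 0.05. Row changes against the gene were fitted with diffSpliceDGE, and lead to rest ratios with limma 3.58.1 (0.5 reads added). DESeq2 1.42.0, other scalings and minimum levels, limma on log2(RPKM + 0.1) and log2(RPKM + 1), a replicate block, the label series as a term and each library left out were alternatives. The fits were also run on simulated counts with 200 changed rows, with means and dispersion taken from these data. Sequences came from GENCODE release 44 on hg38, rows being matched to transcripts by symbol and coding length, and were aligned with BLAST 2.17.0 at an E value of at most 1e-05.

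The 9 genes, the partner lists and the tests were chosen with earlier results of these data known, and the repeat search was added after the levels were seen. For each member gene the lead row, the next row and rows past the threshold were named. For each partner list at most 3 genes past the threshold were named, and where none passed those tested were described. RPL15, SRP9 and RHOA were picked after their values were seen. Total reads per library ran from 21023739 to 31481109. Libraries of a group differed from one another by more than sampling noise, with a chi-square per row of 2.25 (sh-luc) and 1.74 (sh-IUR-5) between libraries 2 and 3. Between library 1 and the others it was 3.71 to 3.87 in sh-luc and 5.78 to 6.55 in sh-IUR-5. With 3 libraries a group, p-values measure the spread between these libraries. The main tests treat the 3 as independent, as the paper describes them. Libraries 2 and 3 share a label series, and if they also share a source, that spread would be understated, which was not tested. Some items are not reported here.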

Additional observations from a re-analysis of the deposited data

How the results depend on the processing

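All 8 lead rows outside NOL9 were called lower under each of the 15 alternatives, and over all 9 lead rows and alternatives the log2 fold changes ran from -1.31 to -0.67. Of all rows, 14256 passed, and 7356 with a minimum of 5 RPKM, where fewer rows were tested. Among the other rows of the 9 genes 4 passed in the fit reported above. That count became 9 with scaling to total reads, 7 with limma on log2(RPKM + 0.1) and 7 with limma on log2(RPKM + 1). It became 2 with DESeq2, 2 with no minimum level and 2 with a minimum of 5 RPKM, and 2 to 4 when a library was left out. It was 2 without sh-luc library 1 and 2 without sh-IUR-5 library 3. In these DESeq2, no-minimum and left-out fits the calls lost were the 2 PDLIM5 rows. The cause was not tested.

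Of the rows that changed against their gene there were 13, whereas limma on the lead to rest ratio counts genes and called 3. The ratio was lower without overlap in 3 genes, and in 5 with 0.1 RPKM added to both terms, since HMGA2 and LAMB4 then have a denominator. With the median of the other rows as the denominator, the change in SLC4A8 was -0.65 in place of 0.033. Partner calls stayed within 1.5 times of 15. The 198 rows with a like stretch were 164 to 203 over the alternatives.

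Deviations from the group mean had correlations of 0.31, 0.088 and -0.013 between same-numbered libraries. Between a library 1 and a library 2 or 3 of the other group they were -0.27 to -0.071. Across numbers 2 and 3 they were 0.23 and 0.10. The 2 libraries of number 1 thus deviated together, while numbers 2 and 3 do not pair the libraries. With the replicate block 8 lead rows and 4 other rows passed.

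Depth limits rows of a few reads, and reads that fit repeated sequence could not be traced to a place from counted rows.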
